A study of Mus musculus with 15 samples.

Results

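Cytosolic ribosomal protein genes were followed in neural stem cells of the mouse subventricular zone during the first day of differentiation. Members were the genes whose symbol on the array begins with Rpl or Rps and goes on with a number, together with Rplp0, Rplp1, Rplp2 and Rpsa. Kinases of the Rps6k family were left out, and so were pseudogenes. The rule named 78 genes, of which 48 (26 of the large and 22 of the small subunit) had a probe set annotated with their symbol alone, out of 12393 genes with such a probe set. The other 30, among them Rplp1, Rpl3, Rpl5 and Rpl36a, share every probe set with another symbol and are not analysed by name. Of the 48 members, 46 passed the filter on low signal and were tested among 7909 genes. Rpl3l and Rpl39l, paralogs of Rpl3 and Rpl39 known for muscle and testis, lay below it, with mean log2 signals of -0.38 and -0.43.

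Ribosomal proteins assemble with ribosomal RNA in the nucleolus into the large and the small subunit, and dividing cells spend much of their transcription on them. Most of their mRNAs begin with a cytosine followed by a run of pyrimidines, the terminal oligopyrimidine (TOP) motif, through which mTORC1 and the binding protein Larp1 adjust their translation. A change in their use can therefore occur with no change in mRNA level, and an array measures mRNA level alone.

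Each of the 3 groups had 5 samples, with 1 array each. Cells of the first group were taken 24 h, and those of the second 12 h, after growth factors were withdrawn and the cells were put on poly-D-lysine in 5% serum. The undifferentiated cells (0 h) stayed in growth factors. All were neurosphere cultures at passages given as 5 to 7 in the labels, from female C57Bl6/J mice of 6 months, with no transgene or gene deletion named. Loss of growth factors, serum and the coated surface came at once, and the effect of each cannot be told apart from the others. Whether the samples of a group were separate cultures is not said in the labels; p-values thus rest on a spread that may be technical.

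Title and array file carry different codes for 13 of the 15 samples. Groups were taken from the titles. With groups taken from the file codes instead, limma passed 0 genes of any kind in each of the 3 comparisons. The title codes end in 1 of 3 suffixes, called A, B and C here. The 4 arrays of suffix C (2 at 24 h, 1 at 12 h and 1 undifferentiated) stood apart: the 99th percentile of their log2 signals was 8.87 to 9.27, against 8.04 to 8.58 on the other arrays. The 3'/5' signal ratio of beta-actin, a sign of RNA or labelling quality, had a mean and SD over 5 arrays of 2.78 ± 0.365 at 24 h and 2.36 ± 0.148 at 12 h, against 1.95 ± 0.238 before differentiation. Each time differed from undifferentiated cells in a two-sided exact permutation test (adjusted p = 0.0476 for both, over 6 tests). The same ratio for Gapdh was not tested, and its groups overlapped. It was 1.23 to 1.45 at 24 h and 1.19 to 1.40 at 12 h, against 0.98 to 1.52 before differentiation. Of the stem and progenitor markers, 7 of 7 on the array passed the filter, and at 24 h 3 rose, with Msi1 at 1.31, and 3 fell, with Nes at -2.05. Of microglial and endothelial markers 0 of 7 and 0 of 5 passed the filter. Both ependymal markers on the array rose at 24 h, Foxj1 by 1.51, as did Pdgfrb, the 1 of 6 pericyte and fibroblast markers above the filter, by 1.97. The log2 of the summed signals of 4 astrocyte markers was 9.56 to 10.71 at 24 h and 9.19 to 10.47 at 12 h, against 8.68 to 9.29 in undifferentiated cells. As deposited, 2 of these 4 rose at 24 h, while Aldh1l1 and Slc1a3 did not pass, at 0.25 and -0.03. For the oligodendrocyte markers the log2 of the summed signals was 7.25 to 10.19 at 24 h and 2.84 to 9.67 at 12 h, against 4.60 to 6.64 in undifferentiated cells. Fewer cells of a type and less RNA per cell cannot be told apart in such samples, and the part of a changing cell mixture in the results below was not tested.

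The starts of 6 members named below are shown, which bear, or lack, a TOP-like run at the start that RefSeq annotates in GRCm38.p6. Whether the annotated starts are those used in these cells was not tested, so a missing run does not show that the mRNA lacks the motif. Each line runs from 15 bases before the annotated start to 15 bases from it, 5′ to 3′, and capitals mark, of any C within 5 bases of that start that 4 or more pyrimidines follow, the one nearest to the start and the pyrimidines after it.
Rpl38, chr11:114668565-114668594, plus strand: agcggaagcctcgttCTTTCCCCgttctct
Rps6, chr4:86857353-86857382, minus strand: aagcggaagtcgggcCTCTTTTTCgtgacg
Rplp2, chr7:141447636-141447665, plus strand: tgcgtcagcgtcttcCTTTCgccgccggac
Rps27l, chr9:66946071-66946100, plus strand: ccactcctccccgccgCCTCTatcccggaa
Rpsa, chr9:120127751-120127780, plus strand: gtgggttatttaaggacgtcatttccggcc
Rps25, chr9:44407699-44407728, plus strand: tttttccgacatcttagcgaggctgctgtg
Rpl38, Rps6 and Rplp2 have such a C exactly at the start, with pyrimidines directly before it too. Rps27l has one 1 base after the start shown but none at a second annotated start, whereas the windows of Rpsa and Rps25 hold none within 5 bases. The nearest run lay at position 21 for Rpsa and -18 for Rps25, counted from the annotated start. Rps19, not shown, has 3 annotated starts, with the nearest run at position 6. Of the 42 members with a promoter in that table, 20 (47.6%) had such a run within 5 bases of an annotated start, against 21.2% of 27025 genes searched in the same way, on the transcribed strand. Exactly at the start it was found in 8 of 42 members (19.0%), against 3.01% of all genes. The letters CGGAAG or their complement CTTCCG, which hold the GGAA core that ETS-family factors bind, stood in 29 of the 42 (69.0%) promoters of 300 bases, against 18.8% of all. CTTCCG holds a C followed by 4 pyrimidines, so both searches can match the same bases.

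Ribosomal protein mRNAs were among the brightest of these cells. Of the 227 probe sets in the top 1% of signal, 97 (42.7%) carried a symbol that the rule names, against 0.893% of all probe sets; sets shared with other symbols are counted here. Of the tested members, 34 had a mean log2 signal above 7, where the median of all tested genes lay at 3.05 to 3.54 per array. Rps29, a zinc-binding protein of the small subunit, averaged 10.15, and Rpl37a of the large subunit averaged 9.98; signals of different probe sets are not comparable as mRNA amounts. A further 10 members averaged below 5, and for 8 of these a probe set shared with other symbols was brighter, so that a dim value need not be the gene's own level.

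As deposited, the median log2 signal of the 46 members on an array was 8.53 to 9.71 at 24 h and 8.57 to 9.30 at 12 h, against 8.37 to 9.36 in undifferentiated cells. The 3 ranges overlapped, and in each group the suffix C arrays stood highest. The members' median log2 difference was 0.30 at 24 h and 0.00 at 12 h relative to undifferentiated cells, where that of all genes tested was -0.06 and 0.00. Within suffixes the 24 h value was -0.31 in A (1 array against 2), 0.42 in B (2 against 2) and 0.28 in C (2 against 1), so the direction turned in A. Without the 4 arrays of suffix C the median was 0.09, and with the actin ratio as a covariate it was -0.41. After quantile normalization, which gives every array the same distribution of signals, the array medians were 8.79 to 8.97 at 24 h and 8.74 to 8.99 at 12 h, against 8.87 to 8.97 in undifferentiated cells, and the members' median differences were -0.05 and -0.04. This normalization moved the median 24 h difference of all genes to 0.04; relative to all genes, the members' median was 0.36 as deposited and -0.09 after it. The members hold so much of the top of the distribution that this normalization can remove part or all of a shift they share. How much it removed here was not tested, and neither scale fixes the amount of ribosomal protein mRNA per cell.

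**Figure D1:**
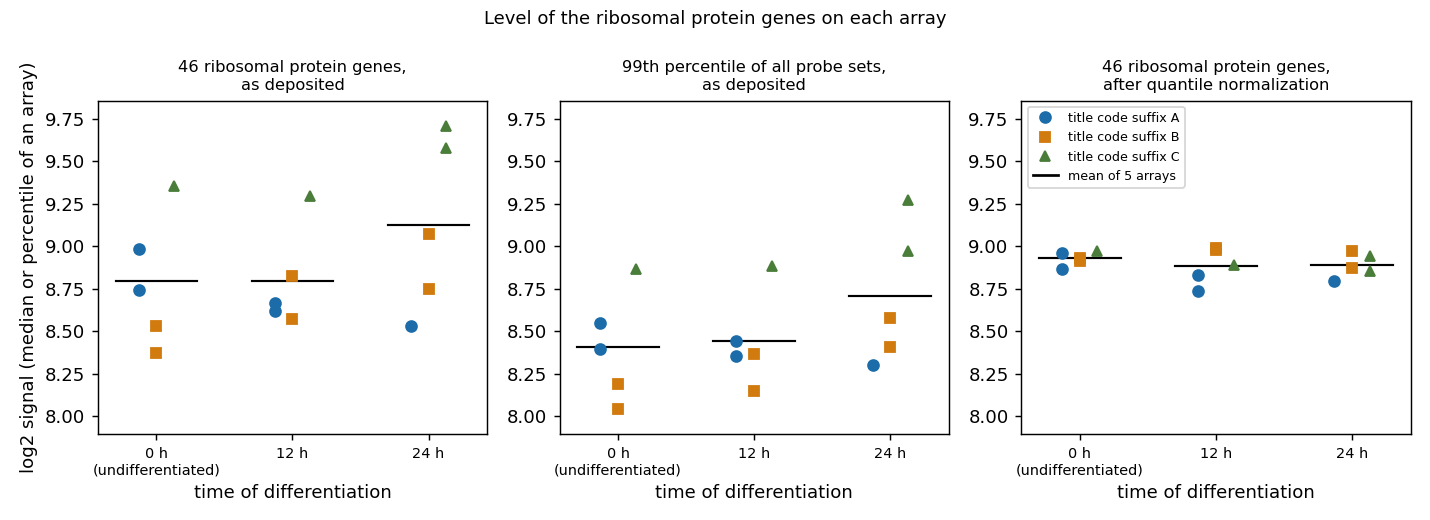
Median log2 signal of the 46 tested ribosomal protein genes on each array as deposited (left) and after quantile normalization (right), and the 99th percentile of all probe sets as deposited (middle), by time of differentiation. Points are arrays, shaped by title code suffix, and lines are means of 5 arrays; the suffix C arrays stand highest in the deposited values, at 9.30 to 9.71, and the spread narrows to 8.74 to 8.99 after normalization.

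The first question is which members differed at 24 h from undifferentiated cells. As deposited, 1 of 46 members passed the threshold (limma, adjusted p under 0.05 over all genes), and it was lower, where 32.1% of all tested genes passed. After quantile normalization 1 member was higher and 4 were lower, where 36.7% of all genes passed. The share of members was thus 5 of 46 at most in these fits, below the background on both scales. Without the suffix C arrays 1 member passed as deposited and 2 after normalization, all lower, where 14.3% and 15.7% of all genes passed. With the actin ratio as a covariate 0 members passed on either scale, but so few genes of any kind did (0.430% and 1.92%) that this count says nothing about the members. At 12 h, 0 of 46 members passed on either scale, against a background of 7.86% as deposited and 11.8% after normalization. At an unadjusted p under 0.05 there were 1 and 4 members, against 2077 of 7909 and 2394 of 7912 genes. Between 24 h and 12 h, 0 of 46 passed on either scale, where 0.417% of all genes passed as deposited and 0.619% after normalization. At an unadjusted p under 0.05 there was 1 member on each scale. Over all genes there were 1188 of 7909 as deposited and 1268 of 7912 after normalization.

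Precision differed between the scales. The 95% confidence interval of the 24 h difference lay within 0.5 log2 units of 0 for 5 of 46 members as deposited and for 34 of 46 after normalization, and at 12 h for 6 and 38. Simulated data had the real means and spreads of 7909 genes, of which 200 were changed, with noise drawn independently for each gene and array. There the fit for 24 h against undifferentiated cells found 36.4% of genes changed 1.5-fold and 77.8% of those changed 2-fold as deposited. In the real fit 32.1% of all genes passed, so these shares need not hold for the real data. The members were less precise than all tested genes as deposited, with a median SE of 0.26, against 0.18. How often the fit finds a changed member was not tested. For most members the deposited interval reached past 0.5 log2 units from 0, so changes below that size and some above it remain unsettled.

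**Figure D2:**
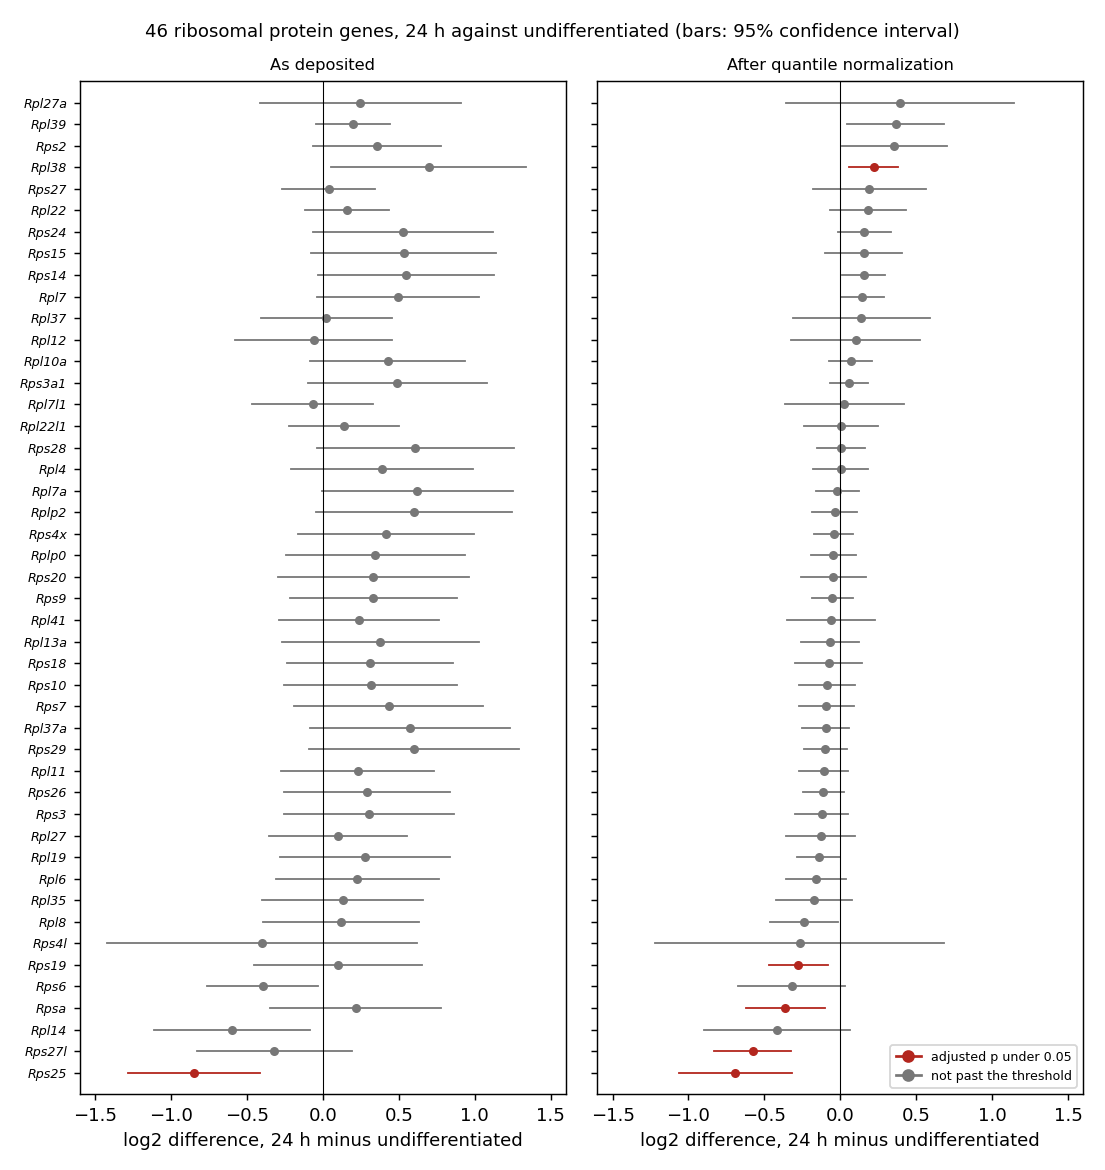
Log2 difference of each of the 46 tested ribosomal protein genes, 24 h minus undifferentiated, as deposited (left) and after quantile normalization (right); bars are 95% confidence intervals and red marks an adjusted p under 0.05. Most intervals are narrower on the right, where 5 genes pass, against 1 on the left.

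Rps27l, a small-subunit protein and paralog of Rps27 whose gene is known as a p53 target in human cells, was lower at 24 h. Its quantile-normalized log2 signals were 7.72, 7.96, 7.93, 8.34 and 7.87 at 24 h and 7.98, 8.24, 8.20, 8.36 and 8.02 at 12 h, against 8.56, 8.42, 8.31, 8.70 and 8.70 in undifferentiated cells. Of the 24 h arrays, 4 lay below every undifferentiated array and 1 lay just above the lowest of them. The difference at 24 h was -0.58 ± 0.12 (SE; adjusted p = 0.00228, limma), and it was -0.77, -0.56 and -0.60 within suffixes A, B and C. As deposited it was -0.32 ± 0.24 (adjusted p = 0.330), and with the suffix as a block -0.45 ± 0.16 (adjusted p = 0.0370). Leaving out 1 array at a time kept the normalized value between -0.67 and -0.51, with the call kept each time. The gene has 2 other probe sets of its own, both of the _x_at kind, which can bind related transcripts. In a limma fit over all probe sets after normalization these differed by -0.62 ± 0.14 and -0.38 ± 0.14 at 24 h (adjusted p = 0.00519 and 0.0470). As deposited they differed by -0.38 ± 0.23 and -0.28 ± 0.20 and did not pass (adjusted p = 0.232 and 0.313). At 12 h the normalized difference was -0.38 ± 0.12 (adjusted p = 0.0508). With the actin ratio as a covariate the normalized 24 h difference was -0.71 ± 0.21 (adjusted p = 0.0724).
The parental copy Rps27, read by a dim probe set, differed by 0.19 ± 0.18 at 24 h after normalization (adjusted p = 0.409).

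Rpsa, a small-subunit protein also known as the laminin receptor precursor, had normalized log2 signals of 9.46, 9.73, 9.90, 9.55 and 9.50 at 24 h, against 9.96, 10.02, 10.22, 9.98 and 9.76 in undifferentiated cells. Of the 24 h arrays, 4 lay below every undifferentiated one. The normalized difference was -0.36 ± 0.12 (limma, adjusted p = 0.0306) and -0.53, -0.28 and -0.24 within suffixes A, B and C. As deposited it had the opposite sign, 0.22 ± 0.27 (adjusted p = 0.569), and it was -0.65 within A but 0.44 within B and 0.24 within C. The deposited signals were 9.15, 9.92, 9.74, 10.29 and 10.50 at 24 h, against 9.81, 9.78, 9.37, 9.41 and 10.15 in undifferentiated cells, so the groups overlapped. The fall of Rpsa was thus seen in the normalized values alone. Leaving out 1 array at a time kept it between -0.43 and -0.30, and the call was lost without undifferentiated replicate 2, 3 or 4 or 24 h replicate 1, 4 or 5.

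Rps19, the small-subunit protein whose human gene is mutated in Diamond-Blackfan anaemia, behaved likewise. Its normalized log2 signals were 8.67, 8.90, 8.85, 8.90 and 8.79 at 24 h, against 9.21, 9.02, 8.95, 9.16 and 9.15 in undifferentiated cells, and the groups did not overlap. The normalized difference was -0.28 ± 0.093 (limma, adjusted p = 0.0291), whereas the deposited one was 0.10 ± 0.26 (adjusted p = 0.797). Within suffixes A, B and C the normalized values were -0.44, -0.18 and -0.31 and the deposited ones -0.64, 0.28 and 0.04. At 12 h the normalized arrays were 8.73, 8.64, 9.05, 9.06 and 8.78, with replicates 3 and 4, both of suffix B, among the undifferentiated arrays and the other 3 below them. Leaving out 1 array at a time kept the 24 h value between -0.31 and -0.24, and the call was lost without undifferentiated replicate 1, 4 or 5 or 24 h replicate 1 or 5.

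Rpl38, a large-subunit protein that in mouse is needed for translation of a set of Hox mRNAs, was the 1 member that rose after normalization. Its normalized log2 signals were 9.49, 9.68, 9.75, 9.65 and 9.57 at 24 h, against 9.62, 9.33, 9.30, 9.33 and 9.46 in undifferentiated cells. Here 4 undifferentiated arrays lay below every 24 h array, and undifferentiated replicate 1 lay among them. The difference was 0.22 ± 0.076 after normalization (limma, adjusted p = 0.0345), 0.70 ± 0.30 as deposited (adjusted p = 0.0895) and 0.53 ± 0.16 as deposited with the suffix as a block (adjusted p = 0.0153). Within suffix A, with 1 array against 2, it was 0.01 after normalization and -0.19 as deposited, and within B and C it was 0.40 and 0.15 after normalization. Leaving out 1 array at a time kept the normalized value between 0.19 and 0.27, and the call was lost without undifferentiated replicate 2, 3 or 4 or 24 h replicate 2, 3 or 4. Its probe set is of the _x_at kind, which can bind related transcripts.

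**Figure D3:**
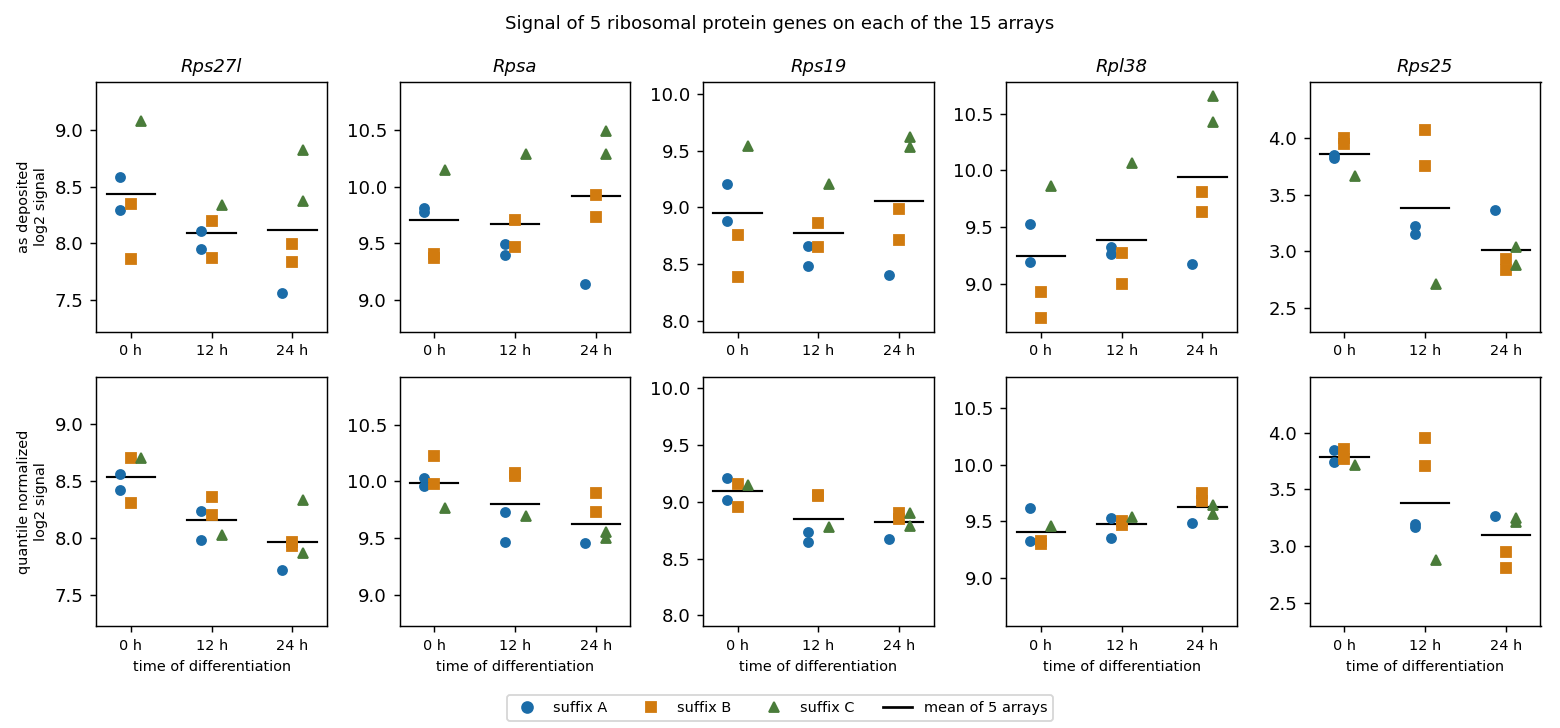
Log2 signal of Rps27l, Rpsa, Rps19, Rpl38 and Rps25 on each array by time of differentiation, as deposited (upper panels) and after quantile normalization (lower panels); points are arrays, shaped by title code suffix, and lines are means of 5. Every panel spans 2.2 log2 units, and Rps27l, Rpsa and Rps19 sit lower at 24 h in the lower panels, where the suffix C arrays no longer stand apart.

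Rps25, a small-subunit protein used in internal initiation of translation, was the member that passed on both scales. Its own probe set was dim. The deposited log2 signals were 3.36, 2.94, 2.84, 3.04 and 2.88 at 24 h and 3.16, 3.22, 4.07, 3.75 and 2.71 at 12 h, against 3.85, 3.82, 3.95, 4.00 and 3.66 in undifferentiated cells. All 24 h arrays lay below all undifferentiated arrays, while at 12 h replicates 3 and 4 lay with the undifferentiated arrays. The difference at 24 h was -0.85 ± 0.21 as deposited and -0.69 ± 0.17 after normalization (limma, adjusted p = 0.00597 and 0.00696), and -0.47, -1.09 and -0.70 within suffixes A, B and C as deposited. A second probe set is annotated with Rps25 and 2 further symbols and averaged 8.30, against 3.42 for the first. It differed by 0.13 ± 0.22 as deposited and -0.13 ± 0.11 after normalization at 24 h (adjusted p = 0.684 and 0.388). With the actin ratio as a covariate the deposited difference was -0.40 ± 0.34 (adjusted p = 0.483). The fall of Rps25 thus rests on 1 dim probe set, and the brighter one that Rps25 shares did not pass.

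Members fixed for their roles gave the following values. Rps6, the small-subunit protein that S6 kinases phosphorylate downstream of mTORC1, had deposited log2 signals of 4.69, 4.92, 5.01, 4.97 and 4.53 at 24 h, against 5.32, 5.00, 5.27, 5.32 and 5.19 in undifferentiated cells. Of the 24 h arrays, 4 lay below all undifferentiated ones. The difference was -0.40 ± 0.17 (limma, adjusted p = 0.0907), and -0.42 ± 0.14 with the suffix as a block (adjusted p = 0.0246). After normalization the group means of Rps6 were 4.87 at 24 h, against 5.19 in undifferentiated cells. Its probe set was dim, with a mean of 4.98, and need not show the gene's own level. Rplp0, of the ribosomal stalk and a frequent reference gene in PCR, differed by 0.34 ± 0.28 as deposited and by -0.04 ± 0.070 after normalization, with a 95% interval of -0.19 to 0.10. Rplp2, the acidic stalk protein, differed by 0.60 ± 0.30 and -0.04 ± 0.070, and neither passed; with the suffix as a block the deposited difference was 0.43 ± 0.16 and passed (adjusted p = 0.0367). Rpl11, which can hold back Mdm2 when it is free of ribosomes, differed by 0.23 ± 0.24 and -0.11 ± 0.076 (adjusted p = 0.492 and 0.273).

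Paralogs and their partners did not pass at 24 h in the normalized values, apart from Rps27l. Rpl22 differed by 0.18 ± 0.12 and its paralog Rpl22l1 by 0.01 ± 0.12 at 24 h (limma, adjusted p = 0.238 and 0.976). For Rpl22, all 24 h arrays lay above all 12 h arrays after normalization, 6.45, 6.37, 6.21, 6.19 and 6.45 against 6.10, 5.85, 6.05, 5.94 and 6.17, with a difference of 0.31 ± 0.12 (limma, adjusted p = 0.204). Rpl22 was the 1 of 46 members without overlap there, where 298 of 7912 genes had none. Probe sets of Rpl22 differed in sign at 24 h relative to undifferentiated cells on both scales. Rpl7 differed by 0.15 ± 0.068 and Rpl7l1 by 0.03 ± 0.18 (adjusted p = 0.104 and 0.930). Rps4l, a paralog of Rps4x, had the widest spread of the tested members, a pooled SD of 0.87 as deposited, and its arrays followed the suffixes: those of B lay at 1.77 to 2.60 and those of A at 0.28 to 1.33.

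By subunit, the median normalized difference at 24 h was -0.03 over 24 large-subunit members, 1 higher and 0 lower, and -0.08 over 22 small-subunit members, 0 higher and 4 lower. Over all 7912 genes tested after normalization, 1585 were higher and 1315 (16.6%) lower, and the share of small-subunit members called lower was near that. The difference between the subunits was not tested. With the suffix as a block, 7 members were higher and 5 lower at 24 h as deposited, where 41.8% of all genes passed, and 1 higher and 8 lower after normalization, where 44.3% passed. The 7 that rose as deposited were Rpl7, Rpl7a, Rpl37a, Rpl38, Rplp2, Rps14 and Rps28, by 0.36 to 0.53, and the 5 that fell were Rpl14, Rps4l, Rps6, Rps25 and Rps27l. Of these 5, all but Rps27l were read by probe sets with a mean under 5; over the 34 members above 7, the block gave 7 higher and 1 lower. At 12 h the block gave 0 members as deposited (background 18.7%) and 1, Rps27l, after normalization (background 21.7%). Only Rps25, Rps27l and Rpl38 passed at 24 h in the same direction in the deposited values with the block and in both normalized fits.

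Some members had groups that did not overlap. As deposited, 2 members at 24 h, Rpl14 and Rps25, both lower, had no overlap with undifferentiated cells, where 25.1% of all genes had none, and at 12 h there were 0 members, where 8.16% had none. After quantile normalization there were 3 at 24 h, Rps19, Rps25 and Rps26, all lower, against 28.0% of all genes, and 1 at 12 h, Rps9, against 9.14%. Between 24 h and 12 h there were 0 members as deposited, where 231 of 7909 genes had no overlap. After normalization there was 1, Rpl22, where 298 of 7912 had none. Where a gene had several probe sets above the filter, they often differed in sign: at 24 h this was so for 8 of 19 members as deposited and 11 of 19 after normalization.

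Genes for building ribosomes, and those of mitochondrial ribosomes, were set beside the members. Of 24 tested nucleolar genes of ribosome biogenesis, 12 fell and 0 rose at 24 h as deposited, with a median of -0.64, and 9 fell and 0 rose after normalization, with a median of -0.53. Over all genes tested 19.4% fell as deposited and 16.6% after normalization. Nop58 and Nop56, core proteins of the box C/D snoRNPs that guide RNA methylation, differed by -1.55 ± 0.40 and -0.95 ± 0.22 at 24 h (limma, adjusted p = 0.00842 and 0.00413). Gnl3, nucleostemin, differed by -0.82 ± 0.19 at 24 h and by -0.86 ± 0.19 at 12 h (adjusted p = 0.00462 and 0.0164). Of 74 tested mitochondrial ribosomal protein genes, 34 fell and 0 rose at 24 h as deposited and 29 fell and 0 rose after normalization, with medians of -0.42 and -0.31, beside the same shares over all genes. These lists were chosen with earlier results of these data known.

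**Figure D4:**
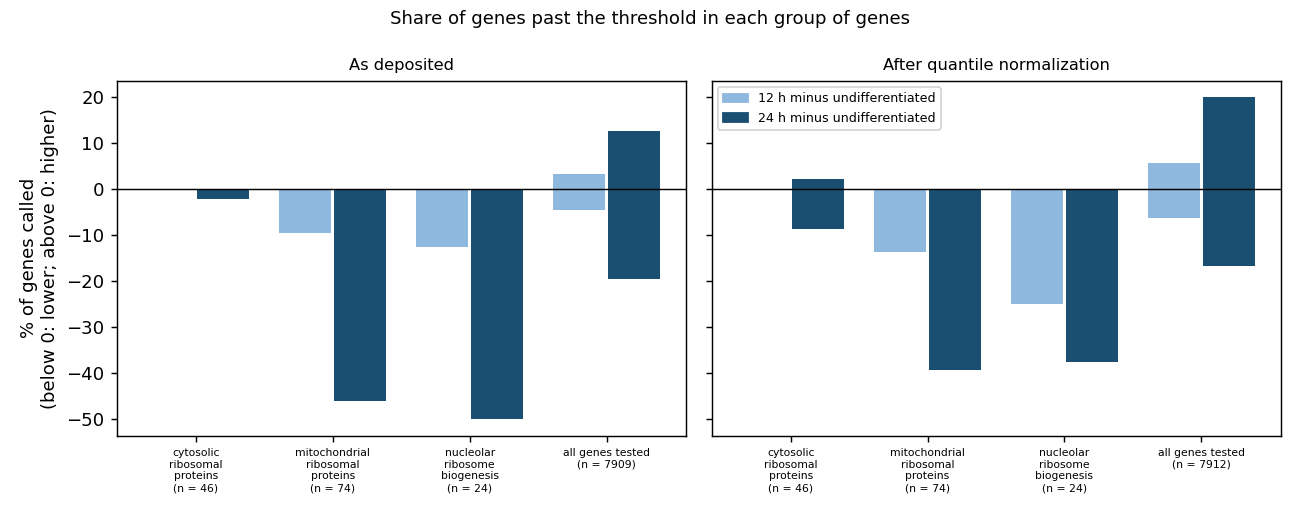
Percent of genes past the threshold in 4 groups of genes, as deposited (left) and after quantile normalization (right); bars below 0 are genes lower, and above 0 genes higher, than in undifferentiated cells, for 12 h and 24 h. Of the cytosolic ribosomal protein genes 1 of 46 passed at 24 h as deposited, against 34 of 74 mitochondrial ribosomal protein genes and 12 of 24 nucleolar genes.

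Other genes of the TOP and mTORC1 system gave mixed counts, to be set against the 32.1% of all genes that passed at 24 h as deposited and the 36.7% after normalization. Of 7 tested genes in the elongation list, 1 rose at 24 h and 6 did not pass, on both scales. The 1 was Tpt1, the TOP mRNA for translationally controlled tumour protein, which is listed there but is not an elongation factor. It differed by 0.90 ± 0.32 as deposited and 0.21 ± 0.067 after normalization (limma, adjusted p = 0.0434 and 0.0214). Eef1a1, another TOP mRNA, differed by 0.78 ± 0.36 and 0.03 ± 0.058 (adjusted p = 0.107 and 0.745). Of 26 initiation genes 2 rose and 2 fell as deposited, and 3 rose and 6 fell after normalization. The 4 as deposited were Eif4e, the cap-binding protein, at -1.01 ± 0.22 (adjusted p = 0.00300), Eif6, an anti-association factor of the large subunit, at -0.53 ± 0.19 (adjusted p = 0.0439; 0.0652 after normalization), Eif4a2 at 0.67 ± 0.17 and Eif1b at 0.51 ± 0.13 (adjusted p = 0.00723 and 0.00862).

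Of 16 tested genes of mTORC1 and its outputs, 1 rose and 3 fell at 24 h as deposited and 2 rose and 2 fell after normalization, a share below that of all genes in each case. Eif4ebp1, the translation repressor that mTORC1 phosphorylates, differed by -1.67 ± 0.32 (limma, adjusted p = 0.00162), and Larp1 by -0.53 ± 0.19 (adjusted p = 0.0419; 0.0771 after normalization). Sesn1, an inhibitor of mTORC1 signalling, differed by 0.96 ± 0.30 (adjusted p = 0.0226). Of 8 tested genes of MYC and its partners, 1 rose and 2 fell as deposited, a share near that of all genes, and 3 rose and 2 fell after normalization. Those called as deposited were Mxi1, a MYC antagonist, at 1.22 ± 0.29, Mxd3 at -0.96 ± 0.24 and Mlx at -0.61 ± 0.17 (adjusted p = 0.00534, 0.00701 and 0.0141). Cdkn1a, the p21 cell cycle inhibitor and a target of p53, differed by -1.53 ± 0.26 at 24 h and -0.96 ± 0.26 at 12 h (limma, adjusted p = 0.000827 and 0.0362). It was the 1 of 4 tested genes of the p53 axis that passed, where 32.1% of all genes passed at 24 h and 7.86% at 12 h. Mdm2, Cdkn2a and Mdm4 did not pass at 24 h, at -0.60, -0.39 and 0.01 (limma, adjusted p = 0.0571, 0.346 and 0.958). Fau, the ribosomal protein outside the symbol rule, differed by 0.43 ± 0.27 at 24 h (adjusted p = 0.228). Of 8 snoRNA host and other TOP genes, limma passed 0 at 24 h as deposited and 1, lower, after normalization.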

How the data were processed

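The deposited table holds the authors' processed array values, 1 per probe set and array, with MAS5 as the tool named per the submitters' processing notes; no source used here gives its version, its settings or a genome build. The deposited values were read as log10, since the slope of 18 spike-in probe sets against log10 concentration was 1.02 ± 0.054 (mean and SD of 15 arrays); the scaling stays unknown, and array medians ran from 0.285 to 0.451 on that scale. They were multiplied by 3.32 to give log2 values. Genes were named from probe sets with 1 symbol in the platform annotation, by the probe set of highest mean. The filter kept genes whose mean exceeded the 40th percentile of probe sets (0.51 on the log2 scale): 7909 as deposited, 7912 after quantile normalization. limma 3.58.1 in R 4.3.3 fitted all 15 arrays with a mean per group, trended moderated variances and Benjamini-Hochberg adjustment over all tested genes. Errors are standard errors. The number of arrays limits the precision.

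Members, lists and tests were chosen with earlier results of these data known. Named genes were those fixed for their role, those that passed, and the 5 with the largest difference in each direction. The fit was checked on simulated data. Alternatives changed the normalization, pseudocount, filter, probe set, variance trend, arrays, suffix and run blocks, actin covariate and group labels. Promoter sequences are from RefSeq, matched by symbol for 42 of 48 members.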

Additional observations from a re-analysis of the deposited data

Results flagged for a closer look

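In each of 165 groups of 5 arrays (26 named members as deposited and after quantile normalization, the members' median on both scales, and the actin ratio), the highest or lowest array was set against the others by Dixon's ratio of gap to range, with 0.71 as the critical value. It was passed in 10 groups, and chance marks about 1 in 20. As deposited, 12 h replicate 5, the suffix C array of that group, stood above the other 4 in 3 bright members. Its log2 signal was 10.55 for Rpl37a, against 9.55 to 9.72 on the other 12 h arrays. For Rpl7 it was 9.24, against 8.27 to 8.54. For Rplp2 it was 10.41, against 9.35 to 9.65. The 99th percentile of all probe sets on that array was 8.88, the highest of the 12 h arrays.

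The other 7 groups were in the normalized values. At 24 h, replicate 5 was at 4.03 for Rpl27a, a large-subunit protein read here by a dim probe set, against 1.78 to 2.42 on the other arrays, and at 9.83 for Rpl7a, against 10.02 to 10.07. Replicate 3 at 24 h was at 9.65 for Rps28, against 9.73 to 9.76. Among the undifferentiated arrays, replicate 1 was at 8.93 for Rpl11, against 8.77 to 8.81, and at 8.82 for Rpl7, against 8.60 to 8.66. Replicate 2 was at 9.32 for Rplp0, against 9.16 to 9.19, and replicate 5 was at 9.87 for Rpl37a, against 10.11 to 10.12.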

How the results depend on the processing

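Between 24 h and 12 h the count of members past the threshold was 0 under each alternative run. At 12 h it was 0 as deposited, and 1 with the suffix block or a block for runs of adjacent title codes (the run block) after quantile normalization and with several-symbol probe sets added after it. At 24 h the deposited count of 1 became 5 after quantile normalization, 7 after cyclic loess, 2 without a filter, 3 with only the 2 groups compared, 12 with the suffix block, 11 with the run block and 5 with it as a random block. It was 0 with the actin ratio as a covariate, where 34 of all genes passed, 0 with groups by file code and 2 with 12 h replicates 3 and 4 averaged; the cause of these shifts was not tested. After quantile normalization the 24 h count was 9 with the suffix block, 11 with the run block, 2 without suffix C and 0 with the actin covariate. With several-symbol probe sets added, 72 members, it was 0 as deposited and 8 after quantile normalization; without the paralogs it stayed 1. Within a suffix too few arrays were left for a count. The alternatives that combine quantile normalization with a run block or the actin ratio, drop suffix C or add several-symbol probe sets were chosen after seeing the data, as was leaving out arrays after quantile normalization.

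Leaving out 1 array at a time, the 24 h count ran from 1 to 2 as deposited and from 2 (without undifferentiated replicate 4) to 7 (without undifferentiated replicate 1) after quantile normalization. It was 2 as deposited without undifferentiated replicate 5, 12 h replicate 1, 3 or 4, or 24 h replicate 1. Normalized, it was 3 without undifferentiated replicate 2 or 3 or 24 h replicate 4 or 5. The 12 h count ran from 0 to 1 as deposited and from 0 to 3 normalized, highest without 12 h replicate 3 on both scales; normalized it was 2 without 12 h replicate 4 and 1 without undifferentiated replicate 3 or 24 h replicate 1 or 4.

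Against the deposited values, Rps19 at 24 h reversed to -0.28 after quantile normalization, also with several-symbol probe sets, and to -0.30 with the suffix or run block after it. Rpsa reversed to -0.36, -0.36 with the suffix block and -0.39 with the run block. Rps25 reversed to 0.13 on its shared probe set, which replaced its own by construction, and lost its call with the actin covariate (-0.40 as deposited, -0.51 normalized) and with groups by file code (-0.13). Over 26 named members and all alternatives, 2846 of 3321 values kept direction and side of the threshold (or, where untested, moved by less than the SD between replicates), and 58 passed in place of not passing. Over all genes, 1003 rose and 1533 fell at 24 h as deposited, against 1585 and 1315 after quantile normalization. The labels give no replicate numbers, so the pairing was tried through the run block; 4 of the 6 runs hold all 3 groups.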
